A study of Mus musculus with 8 samples.

Results

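Cells meet misfolded proteins with a set of chaperones that is largely shared by all tissues. HSP70 proteins bind exposed stretches of unfolded proteins, J-domain proteins (the Dnaja, Dnajb and Dnajc families) bring them their clients and start their ATPase cycle, HSP110 proteins exchange their nucleotide, HSP90 proteins finish the folding of kinases and receptors, and small heat shock proteins hold unfolded proteins until HSP70 can act. Heat shock factor 1 (Hsf1) switches on the inducible members under stress by binding repeats of the bases GAA and their complement, called heat shock elements.

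The expression of these genes was compared in skin fibroblasts of 2 conplastic mouse strains, which carry the nuclear genome of C57BL/6J and the mitochondrial genome of another strain. The Nd2 mutant strain, C57BL/6J-mtALR/LtJ, has a mutation in the mitochondrial gene for NADH dehydrogenase subunit 2, a part of respiratory complex I, and C57BL/6J-mtAKR/J was the control. RNA from cultured cells of 8 mice aged 12 months, for which the labels name no treatment, was hybridised to 8 Illumina MouseRef-8 v2.0 arrays, 1 per mouse. The Nd2 mutants were mice 28 and 32 (males) and 34 and 35 (females), and the controls were mice 16 and 17 (males) and 15 and 37 (females).

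Probes were taken as heat shock probes when their gene symbol began with Hspa, Hspb, Hsph, Hsp90a, Dnaja, Dnajb or Dnajc, or was Hsf1 or Hsf2, leaving out Hspa5, Hspa9, Hspbp1 and Dnajb9. That gave 80 of the 25697 probes on the array, for 57 of its 18138 gene symbols. A probe was tested when its detection p-value was under 0.01 on all 4 arrays of at least 1 strain, which held for 41 heat shock probes of 36 genes among 10414 tested probes. The other 39 probes, and with them 21 genes such as Dnaja1, Hspa14 and Hspb3, did not pass this filter. Although the symbols are those of the cytosolic chaperones, the rule also takes in J-domain proteins of other compartments: of the tested probes, 5 belonged to proteins of the endoplasmic reticulum and 4 to proteins of mitochondria.

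Promoter sequence from RefSeq (build GRCm38.p6) was at hand for 27 of the 36 tested genes, with 34 start sites. The paired element GAANNTTC or TTCNNGAA, each of which reads the same on both strands, lay in the 250 bases before the start in 8 of these 34 promoters and in 12.8% of 32851 promoters of the table. The 8 promoters include both start sites of Dnajb6. By gene, it was found for 7 of the 27, and the share over all genes was not computed. The longer element of 3 units, GAANNTTCNNGAA on either strand, contains the paired one. It was found in 2 of the 34 promoters, those of 1 gene, Dnajb6, and in 0.466% of all promoters. The windows of the Dnajb6 start sites overlap, and both hold the same stretch. The 150 bases before the start are shown for the heat-inducible genes Hspa1a and Hspb1, for Hspb6, for Dnajb6 with its longer element, and for Dnajb4, the gene with the lowest unadjusted p between the strains. Capitals mark the element.
Hspa1a, chr17:34972157-34972306, minus strand: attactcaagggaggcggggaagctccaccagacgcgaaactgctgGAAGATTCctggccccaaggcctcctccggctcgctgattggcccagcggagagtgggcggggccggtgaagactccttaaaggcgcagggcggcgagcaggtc
Hspb1, chr5:135887769-135887918, plus strand: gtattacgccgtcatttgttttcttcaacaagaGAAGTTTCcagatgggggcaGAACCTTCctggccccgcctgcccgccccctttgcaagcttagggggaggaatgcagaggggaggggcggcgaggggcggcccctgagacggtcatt
Hspb6, chr7:30553151-30553300, plus strand: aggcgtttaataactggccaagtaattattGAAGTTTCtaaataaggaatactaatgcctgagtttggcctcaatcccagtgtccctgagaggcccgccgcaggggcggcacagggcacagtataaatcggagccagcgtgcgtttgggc
Dnajb6, chr5:29735748-29735897, plus strand: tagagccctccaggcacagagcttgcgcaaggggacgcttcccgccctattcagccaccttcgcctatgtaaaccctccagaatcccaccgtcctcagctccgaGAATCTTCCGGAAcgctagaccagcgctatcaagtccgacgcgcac
Dnajb4, chr3:152193846-152193995, minus strand: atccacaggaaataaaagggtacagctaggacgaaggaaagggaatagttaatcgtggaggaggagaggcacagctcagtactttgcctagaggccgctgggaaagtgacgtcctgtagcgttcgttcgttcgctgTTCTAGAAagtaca
In Hspa1a the element began 104 bases before the start, and in Hspb1 it occurred at 117 and at 97 bases. The same letters were found for Dnajc10 and Dnajc27, and not in this window for Hspa2, Hspb8 and Dnajc3, which come up below in the comparison of the sexes. They were also absent before both starts of the heat-inducible Dnajb1, and before the other start of Dnajb4 and of Hspb6. A match of letters says nothing about whether a factor binds there.

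All values below are the normalized, background-subtracted intensities of 1 probe, which can be compared between mice but not between probes. Between 10973 and 11350 probes were detected on the arrays of Nd2 mutants and between 10663 and 10837 on those of controls, and between 41 and 45 of the 80 heat shock probes on each. The array of control mouse 15 stood apart, with a mean correlation of 0.934 with the others, against 0.963 to 0.974 for the rest. It held the lowest of the 8 values for 15 of the 41 heat shock probes (36.6%), and for 31.4% of all tested probes. It held the highest for 5 heat shock probes (12.2%), and for 26.5% of all tested probes. Fibroblast markers were detected for 11 of 11 genes, with summed intensities of 36912 to 42846 in Nd2 mutants and 30086 to 44665 in controls. The sum over 11 macrophage genes was 346 to 2071 in Nd2 mutants, highest in mouse 35, and 272 to 663 in controls, with Ptprc never detected. Skeletal muscle genes summed to 377 to 1066 and 845 to 1396, with Ckm and Myh4 never detected, keratinocyte genes to 199 to 1187 and 325 to 966, and smooth muscle genes to 25407 to 29279 and 24414 to 38202. Such sums are led by the brightest probes. In the strain fit described below, Actg2 (log2 fold change -1.22), Myh11 (-1.06) and Acta1 (-0.86) were lower in Nd2 mutants at limma's unadjusted p under 0.05. Lum (0.88) and 1 probe of Dcn (0.82) were higher, while the other Dcn probe gave 0.12. None of these passed after adjustment, and the other tested genes of these lists did not all share the direction. The Acta2 probes gave -0.15, 0.33, -0.23 and 0.25, and the Smtn probes -0.23, -0.24 and 0.09. Tagln gave -0.46, Des -0.63, Mylpf -0.56 and Tnni2 -0.58. Of the fibroblast genes, Col1a2 (-0.30), Pdgfrb (-0.12) and Thy1 (-0.12) were lower. Col1a1 (0.19), Col3a1 (0.30), Pdgfra (0.39), Vim (0.44) and Fap (0.03) were higher. The part of the cell type markers in the results below was not tested. In RNA from whole cultures, fewer cells of a type and less RNA per cell cannot be told apart.

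Between the strains, no heat shock probe passed the threshold. With limma and Benjamini-Hochberg adjustment over all tested probes, 0 of 41 had an adjusted p under 0.05, the lowest being 0.639, as did 0% of all tested probes. At an unadjusted p under 0.05, 1 heat shock probe (2.44%) was found, that of Dnajb4, which was lower in the mutant, while 7.63% of all tested probes passed in either direction and 3.13% were lower. The methods' t-test gave 0 heat shock probes at an unadjusted p under 0.05. The intensities of 1 probe, for Hsp90ab1, did not overlap between the strains, or 2.44% against 4.37% of all tested probes. Of the 41 probes, 18 were higher and 23 lower in the mutant, with a median log2 fold change of -0.05, beside 0.00093 over all tested probes. For 37 of the 41 probes the 95% interval of the log2 fold change, with 16 added to each intensity, lay within 1 on either side of 0 (90.2%, and 89.0% of all tested probes). Since the added value shrinks fold changes of dim probes, such an interval can still hold a halving of a dim probe's intensity. The exceptions were Hspa8, Hspa1a and 2 probes of Hsp90ab1.

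**Figure D1:**
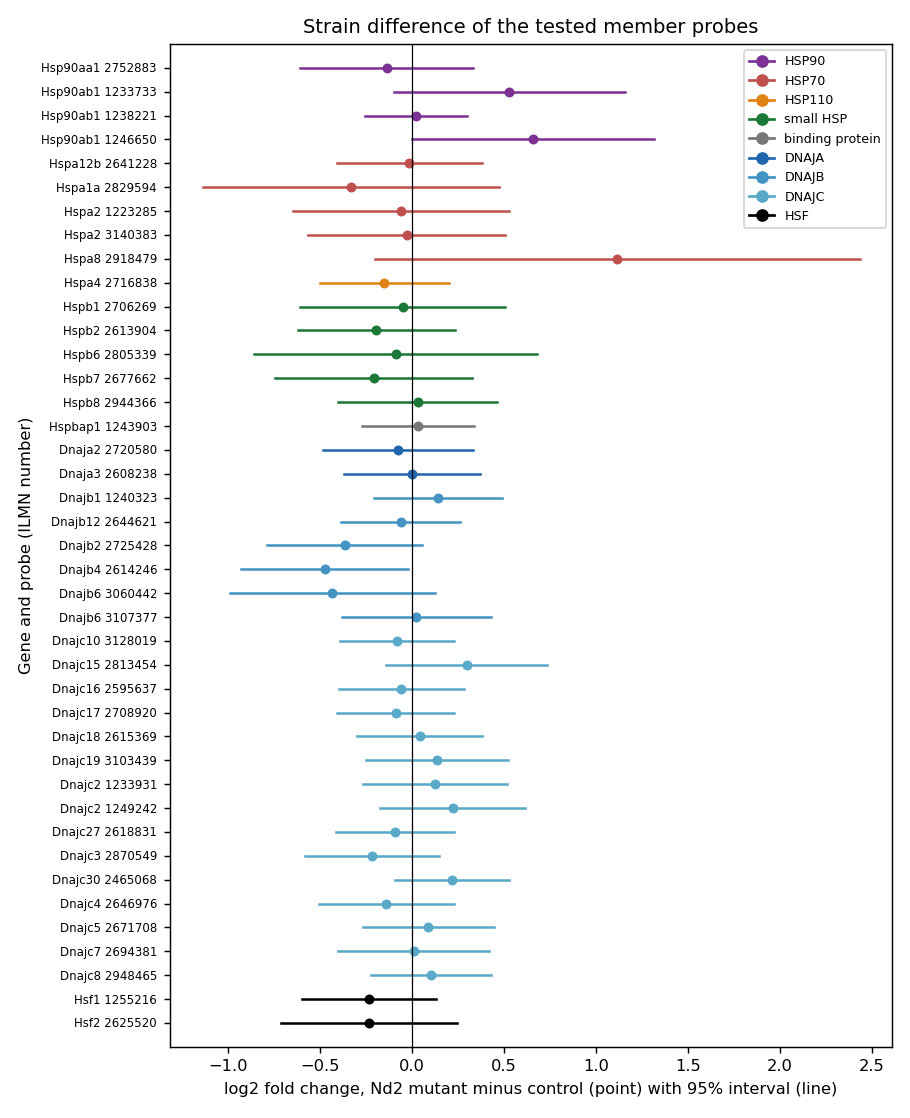
Log2 fold change of each of the 41 tested heat shock probes (Nd2 mutant minus control, 4 mice each, points) with its 95% interval from limma (lines), coloured by family. Most points lie close to 0. The interval of Hspa8 is the widest and that of Dnajb4 ends just below 0.

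Among the HSP90 genes, Hsp90ab1 encodes the constitutive cytosolic HSP90, and its 3 probes did not give the same picture. For ILMN_1238221 the intensities were 4368, 4256, 4477 and 4403 in Nd2 mutant mice 28, 32, 34 and 35, and 4065, 4839, 4284 and 4120 in control mice 15, 16, 17 and 37. The strains overlapped, and the log2 fold change was 0.02 (SE 0.13, adjusted p = 0.971). For ILMN_1246650 the values, in the same order of mice, were 898, 1009, 816 and 804 in Nd2 mutants and 259, 650, 688 and 788 in controls. Every mutant was above every control, by a log2 fold change of 0.66 (SE 0.30, adjusted p = 0.639, exact permutation p = 0.0286, the smallest that 4 against 4 mice can give). ILMN_1233733 gave 1097, 1426, 1179 and 1233 against 424, 949, 1033 and 1225, a log2 fold change of 0.53 (SE 0.28, adjusted p = 0.644). In both of the latter probes control mouse 15 was lowest, and without that mouse their log2 fold changes were 0.31 and 0.21. Without control mice 15 and 16, they were 0.25 and 0.12.

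Within a mouse, the log2 difference of ILMN_1246650 from ILMN_1238221 was -3.89 in control 15 and between -2.87 and -2.06 in the other mice. The difference of ILMN_1233733 from the same probe was -3.21 in control 15 and between -2.33 and -1.57 in the others. Hspd1, the mitochondrial HSP60 and not one of the heat shock probes defined above, was named after its values were seen, because 1 of its 2 probes did the same. ILMN_2639036 gave 100 and 216 in controls 15 and 16 and 313 to 498 in the other mice, while ILMN_2713841 stayed between 1793 and 2420 in all 8. Over the 1850 genes with several tested probes, the median range between probes of a gene in their deviation from the mean was 0.316 in control 15 and 0.228 in control 16 on the log2 scale, and 0.149 to 0.207 in the other mice. The part of this in the difference at Hsp90ab1 was not tested.

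**Figure D2:**
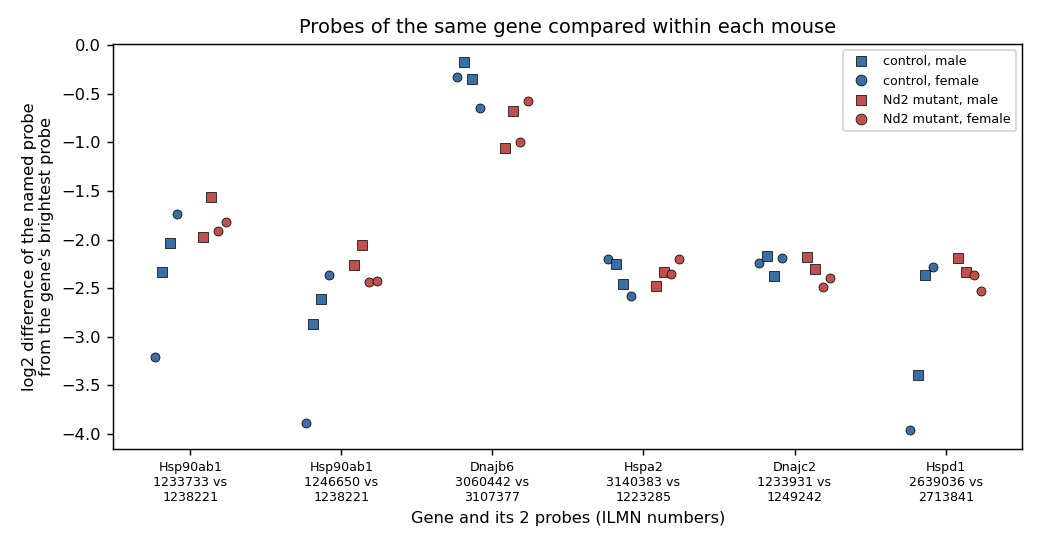
Log2 intensity of a probe minus that of the brightest probe of the same gene, in each mouse (points; blue control, red Nd2 mutant, squares males, circles females). Control mouse 15, the lowest circle, sits at -3.21 and -3.89 for the Hsp90ab1 probes and at -3.96 for Hspd1, away from the other mice, but within their range for Dnajb6, Hspa2 and Dnajc2.

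Hsp90aa1 is the inducible HSP90. Its tested probe was dim, with 30, 35, 33 and 39 in Nd2 mutants and 20, 42, 41 and 60 in controls. Control 15 lay below all mutants and the other controls above them (log2 fold change -0.14, SE 0.21, adjusted p = 0.851). Without control 15 the log2 fold change was -0.34 (limma's unadjusted p = 0.041, adjusted p = 0.616), and without control 37 it was 0.02.

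Among the HSP70 genes, Hspa8, the constitutive Hsc70, had the largest fold change of all heat shock probes and also the widest spread. Its intensities were 1249, 1052, 962 and 842 in Nd2 mutants and 108, 328, 1008 and 1168 in control mice 15, 16, 17 and 37. Controls 15 and 16 were far below all mutants, and controls 17 and 37 were among them. The log2 fold change was 1.11 (SE 0.60, adjusted p = 0.643, exact permutation p = 0.286), and its within-strain spread exceeded that of 99.7% of tested probes. Without control mice 15 and 16 the log2 fold change was -0.09, so the direction rested on these 2 arrays. Only 1 probe measured this gene.

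**Figure D3:**
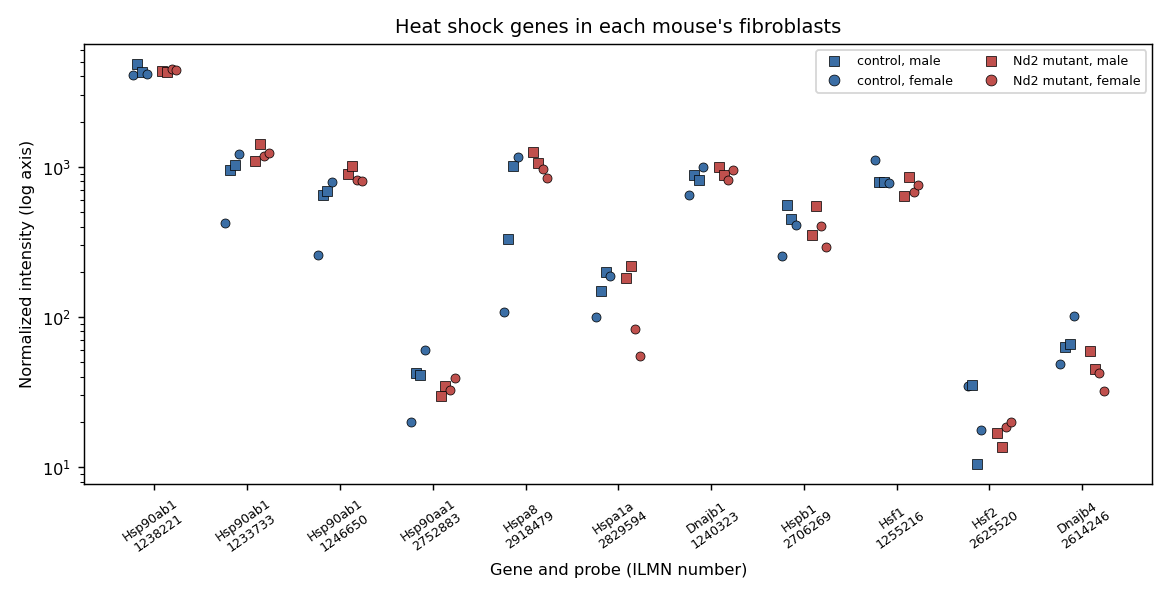
Normalized intensity (log axis) of 11 heat shock probes in each mouse (points; blue control, red Nd2 mutant, squares males, circles females). The strains overlap for 10 of the 11 probes. The low control points of Hspa8 are mice 15 and 16, at 108 and 328.

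Hspa1a, the stress-inducible HSP70, was measured by 1 probe, and its gene is nearly identical to Hspa1b. No probe sequences were at hand, so whether the signal also comes from Hspa1b was not tested. The intensities were 183 and 219 in male and 83 and 55 in female Nd2 mutants, and 148 and 198 in male and 101 and 188 in female controls. The mutant males lay among or above the controls and the mutant females below all of them. Over both sexes the log2 fold change between the strains was -0.33 (SE 0.36, adjusted p = 0.793). Hspa2, known for its role in male germ cells, gave log2 fold changes of -0.06 and -0.03 by its 2 probes, and Hspa12b, a distant relative of HSP70, -0.01. For Hspa4, an HSP110 nucleotide exchange factor, the mutants ranged from 103 to 150 and the controls from 130 to 179 (log2 fold change -0.15, SE 0.16).

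None of the 5 small heat shock genes passed. Hspb1, the HSP27 of mouse, had 351, 552, 403 and 293 in Nd2 mutants and 256, 557, 452 and 411 in controls, with both strains spread over the same range (log2 fold change -0.05, SE 0.25, adjusted p = 0.957). Hspb6 varied more between mice, from 404 to 780 in mutants and from 272 to 1010 in controls (-0.09, SE 0.35). Hspb8, the partner of Bag3 in the removal of aggregates, ranged from 255 to 446 and from 260 to 366 (0.03, SE 0.19). Hspb2 and Hspb7, which are best known from muscle, were dim, at 13 to 64 in all mice, with log2 fold changes of -0.20 and -0.21. Hspbap1, which encodes a protein that binds a small heat shock protein, differed by 0.03.

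Of the 23 tested probes for J-domain proteins, 12 were higher and 11 lower in the mutant. Dnajb4, a J-domain protein of the cytosol, was the only one with an unadjusted p under 0.05. Its intensities were 60, 45, 43 and 32 in Nd2 mutants and 49, 63, 66 and 101 in controls. All mutants but mouse 28 were below all controls, and the log2 fold change was -0.48 (SE 0.21, limma's unadjusted p = 0.042, adjusted p = 0.639, exact permutation p = 0.0571). The direction was the same under all 19 alternatives run, with log2 values from -0.70 to -0.31 on the log scale, and was -0.24 in males and -0.72 in females alone, but the unadjusted p rose above 0.05 when mouse 32, 34 or 35 or control 16, 17 or 37 was left out, and with 50 added, linear intensities, no filter or the methods' t-test. The other 2 Dnajb4 probes were not tested.

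Dnajb1, the main inducible HSP40, had 1001, 886, 813 and 950 in Nd2 mutants and 652, 875, 818 and 991 in controls. Apart from control 15 the mice overlapped (log2 fold change 0.14, SE 0.16, adjusted p = 0.799). Dnajb2 was lower in the mutant, at 174 to 251 against 225 to 376, without passing (-0.37, SE 0.19, adjusted p = 0.639), and differed by -0.09 without control mice 15 and 16. The 2 probes of Dnajb6, which keeps polyglutamine proteins from aggregating, differed. ILMN_3060442 ranged from 160 to 221 in mutants and from 150 to 362 in controls (-0.43, SE 0.25), and ILMN_3107377 from 322 to 363 and from 244 to 427 (0.02, SE 0.18). Without control 37 the log2 fold change of the first probe was -0.67 (limma's unadjusted p = 0.0072, adjusted p = 0.441), and without control mice 15 and 16 it was -0.01. In that last setting, which was added after the values were seen, ILMN_3107377 gave 0.32 (limma's unadjusted p = 0.0496, adjusted p = 0.877). In the DNAJA family, Dnaja3 gave 0.00 (SE 0.17) and Dnaja2 -0.08 (SE 0.18).

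In the DNAJC family, whose members place HSP70 at particular sites, 15 probes ranged from -0.22 to 0.30 in log2 fold change. Among them were Dnajc10, a reductase of the endoplasmic reticulum (-0.08, SE 0.14), Dnajc19 of the mitochondrial import motor (0.13, SE 0.17) and Dnajc5, the cysteine string protein of vesicles (0.09, SE 0.16). The 4 probes for mitochondrial J-domain proteins, named after their values were seen, were all above 0, namely Dnaja3, Dnajc15 (0.30), Dnajc19 and Dnajc30 (0.22), with a median of 0.18 and a lowest adjusted p of 0.679. That all 4 were above 0 rested on control 15, which was the lowest of the 8 mice for Dnajc15, Dnajc19 and Dnajc30. Without it 2 of the 4 were above 0 and the median was 0.04, with Dnajc15 at 0.09 and Dnajc19 at -0.03. Dnajc30 stayed between 0.14 and 0.26 with any 1 mouse left out, without passing after adjustment. For the 5 probes of the endoplasmic reticulum the median was -0.06.

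Hsf1, the master regulator of the heat shock response, had 634, 860, 682 and 756 in Nd2 mutants and 1110, 791, 794 and 783 in controls 15, 16, 17 and 37. Control 15 was far above the other mice, which overlapped (log2 fold change -0.23, SE 0.16, adjusted p = 0.696). Without control 15 the log2 fold change was -0.11. Hsf2, a related factor that can pair with Hsf1, was dim, at 17, 14, 19 and 20 against 35, 35, 10 and 18 (-0.23, SE 0.22, adjusted p = 0.749). Its 2 higher controls were mice 15 and 16, and without them the log2 fold change was 0.15.

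A list of 19 genes known to be induced by heat, of which 17 could be tested by 20 probes, had 9 probes higher and 11 lower in the mutant, with a median log2 fold change of -0.04 and 1 unadjusted p under 0.05, that of Dnajb4. It includes Hsp105, an older symbol of the HSP110 gene Hsph1, which lies outside the rule for heat shock probes and was named after its values were seen (673 to 1105 in mutants, 956 to 1591 in controls, log2 fold change -0.43, SE 0.21, adjusted p = 0.639). A second list held 45 chaperone genes outside the rule, such as HSP90 co-chaperones, chaperonin and prefoldin subunits, and shared 8 genes with the first, so that their counts are not independent. Of its 49 tested probes, 20 were higher and 29 lower, with a median of -0.04, and none passed after adjustment. At an unadjusted p under 0.05, 1 was higher, a probe of the phosphatase Ppp5c (0.32, SE 0.14) whose other probe gave -0.08, and 1 was lower, that of the HSP90 partner Sugt1. Sugt1 was dim, at 7 to 13 in Nd2 mutants and 17 to 28 in controls (-0.60, SE 0.15, adjusted p = 0.639). It was detected on 3 of the 4 mutant arrays and on all 4 control arrays. It thus passed the detection filter only through the controls, where it was higher, and nothing is read from its difference.

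Each strain had 2 males and 2 females, so the sexes could be compared with strain as a term. In that fit, 5 of the 41 heat shock probes were higher in males at an unadjusted p under 0.05 (12.2%) and 0 were lower, while 3.86% of all tested probes were higher in males and 8.31% differed in either direction. After adjustment 0 heat shock probes passed, with a lowest adjusted p of 0.348, and 0.0192% of all tested probes did. For 4 heat shock probes every male was above every female (9.76%, and 2.49% of all tested probes). Of the markers of other cell types, the muscle actin Acta1 averaged 885 in males and 572 in females (log2 difference 0.66, SE 0.28, adjusted p = 0.578), and the macrophage receptor Csf1r was lower in every male than in every female (mean 25.8 against 35.8). Summed macrophage genes ranged from 272 to 587 in males and from 307 to 2071 in females, and skeletal muscle genes from 670 to 1396 and from 377 to 1360. Their part in the sex difference was not tested.

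The 2 probes of Hspa2 were among them. ILMN_1223285 had 751, 638, 646 and 617 in males 28, 32, 16 and 17, and 342, 412, 366 and 551 in females 34, 35, 15 and 37. ILMN_3140383 had 122, 114, 123 and 99.6 in the males and 53.9, 77.1, 66.8 and 78.8 in the females. On both, males were higher in each strain, by a log2 value of 0.67 (SE 0.17, adjusted p = 0.362) and 0.62 (SE 0.15, adjusted p = 0.348). The exact permutation p was 0.0286 for each. That test left strain out, and its p restates the lack of overlap between the sexes. The unadjusted p stayed under 0.05 for both probes when any 1 mouse was left out.

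Hspb8 had 389, 446, 366 and 361 in the males and 255, 301, 260 and 356 in the females (0.40, SE 0.16, adjusted p = 0.549). Dnajc3, an inhibitor of the kinase PERK in the endoplasmic reticulum, had 450, 433, 517 and 520 in the males and 385, 312, 393 and 418 in the females (0.34, SE 0.13, adjusted p = 0.545). In both genes the sexes did not overlap. The unadjusted p rose above 0.05 for Hspb8 without mouse 28, 32, 34 or 35 or control 15, and for Dnajc3 without mouse 28, 32 or 35 or control 17. For Hspa1a, with the values above, control female 37 lay among the males, and the difference was 0.82 (SE 0.27, adjusted p = 0.482). With array weights, which give less weight to arrays that vary more, the adjusted p for sex was under 0.05 for both Hspa2 probes (0.0225 and 0.0198), Hspa1a (0.0284) and Hspb8 (0.0446), and 391 of all tested probes passed (3.75%).

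The strain difference depended on sex at an unadjusted p under 0.05 for 1 heat shock probe, Hspa1a, while 1.77% of all tested probes did so and 0.00960% after adjustment. Its log2 fold change between the strains was 0.21 in males and -0.87 in females, each from 2 against 2 mice (difference 1.08, SE 0.44, adjusted p = 0.9999). The unadjusted p for Hspa1a rose above 0.05 without mouse 28, 32 or 35 or control 16 or 37, with linear intensities (0.101) and with no filter (0.0751). For Hspa2 the log2 fold changes between the strains were 0.13 and 0.07 in males and -0.25 and -0.14 in females, and the difference did not pass the test.

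**Figure D4:**
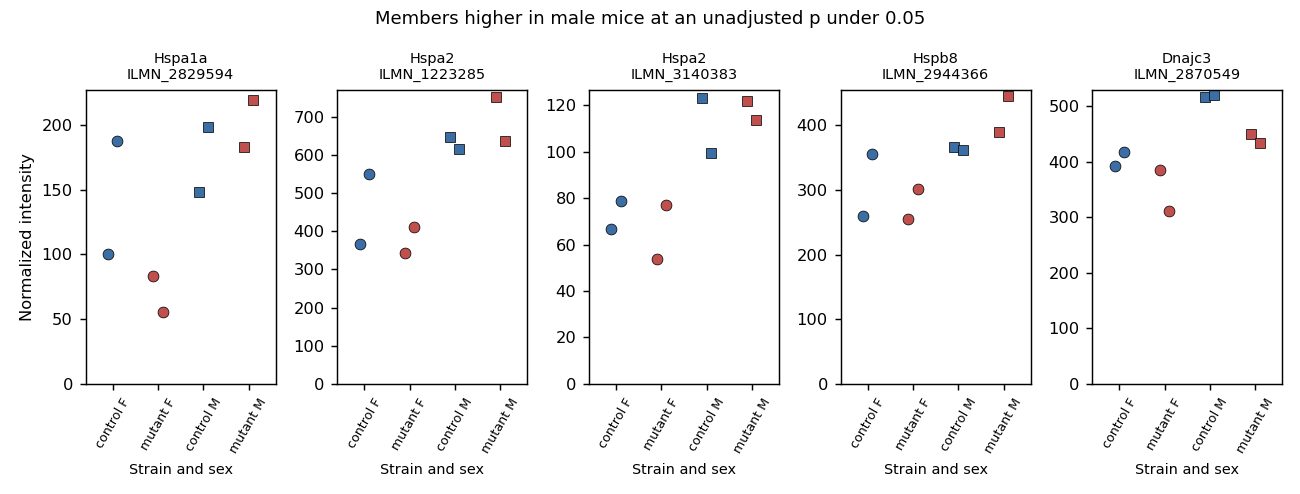
Normalized intensity of the 5 heat shock probes that were higher in males at an unadjusted p under 0.05, by strain and sex (F female, M male; 2 mice per group, points; axes start at 0). Males and females do not overlap except for Hspa1a, where 1 control female reached 188.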

How the data were processed

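Per the methods, the authors extracted the arrays in GenomeStudio, quantile normalized them and subtracted background where necessary; the deposited intensities are linear. A second deposited table has identical bytes and was left out. Each intensity has a deposited detection p-value from the authors' software. The number of detected probes served as the measure of signal over background, and the number of arrays limits the precision.

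Strain and sex came from the labels. Intensities were floored at 0 and log2(value + 16) was used, so fold changes of dim probes are understated. Probes had to have a detection p-value under 0.01 on all 4 arrays of at least 1 strain. Two-sided tests used limma 3.58.1 under R 4.3.3 (functions lmFit and eBayes), and p-values were adjusted by Benjamini-Hochberg over every tested probe, with 0.05 as threshold. For single probes an exact permutation test of the 4 against 4 mice was added. Sex was tested with strain as a term, and with an interaction. The fit was tested on simulated data. Alternatives were 1 or 50 added, linear intensities, detection on at least 1 array or on all 8, no filter, the methods' t-test, an eBayes trend, array weights, sex as a term, each sex alone and each mouse left out. Leaving out control mice 15 and 16 together, and each mouse in the fits with sex, was added after the values were seen.

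All tested probes of the HSP90, HSP70, HSP110, small heat shock and Hsf genes could be named. J-domain genes could be named for an unadjusted p under 0.05, lack of overlap, disagreeing probes or the 3 highest mean intensities of a subfamily, and other chaperone genes for an unadjusted p under 0.05. Other names are marked. The heat shock probes, gene lists and markers were chosen with earlier results of these data known.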

Additional observations from a re-analysis of the deposited data

Results flagged for a closer look

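In 5 of 82 groups of 4 mice (each tested heat shock probe in each strain), 1 mouse lay far from the other 3, measured as its gap to the nearest mouse over the range of the group on the log2 scale, which passed Dixon's critical value at a confidence level of 95%. Chance gives about 1 in 20 groups, or 4.1. Control mouse 15 accounted for 4 of them, being high for Hsf1 (0.963) and Dnajc16 (0.830), and low for Hspb8 (0.914) and Dnajc19 (0.879). The last was Dnaja2, low in Nd2 mutant mouse 32 (0.852). The cause was not tested.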

How the results depend on the processing

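After adjustment, 0 heat shock probes differed between the strains under any of 19 alternatives, with a lowest adjusted p of 0.331 (Hspa8 without control 17), and over all probes 3 did with no filter and 1 with the methods' t-test. Over all probes, 795 had an unadjusted p under 0.05, against 1587 with no filter and 436 (without control 16) to 1467 (without control 17) when 1 mouse was left out. It was 1138 without control 37, 830 without control 15 and 588 without control mice 15 and 16. For the heat shock probes this count was 1, and 2 with detection asked of only 1 array or of all 8, with an eBayes trend, with array weights and with sex as a term, and 0 with the methods' t-test. Over all probes these settings gave, in that order, 917, 637, 805, 749, 831 and 698. The count of heat shock probes ranged from 0 (without mouse 32, 34 or 35 or control 16) to 5 (without control 37) when 1 mouse was left out, with 3 without control 15 and 4 without control 17, and was 3 without control mice 15 and 16. Shares of all tested probes are not given for these settings, so nothing is read from the changes in this count. The number of probes without overlap was 1, against 2 with no filter, 1 to 4 (without mouse 28) with 1 mouse left out, and 6 without control mice 15 and 16. Groups of fewer mice separate more easily by chance. The share of all tested probes without overlap is not given for these settings, so nothing is read from the higher counts. The median log2 fold change stayed between -0.09 and 0.03. Of the 41 probes, 18 kept their direction under these 19 alternatives, and 14 also in each sex alone. Without control mice 15 and 16 the log2 fold change of Hspa8 turned to -0.093 and that of Hsf2 to 0.15.

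For the interaction of strain and sex, the count of 1 became 0 with linear intensities, 3 with probes detected on at least 1 array, 2 with no filter (Hspa1a not among them), and 0 (without mouse 28, 32 or 35 or control 16) to 8 (without control 37) with 1 mouse left out. For sex, the count of 5 became 8 with no filter and 9 with array weights, and 3 (without mouse 32 or 35) to 8 (without control 37) with 1 mouse left out. Without control 37, 0 heat shock probes passed after adjustment in either fit, beside 2 (interaction) and 7 (sex) of all 10493 tested probes. The share of all tested probes at an unadjusted p under 0.05 is not given for these alternatives, so nothing is read from the higher counts. The cause of these changes was not tested. Another background correction and normalization, and the chip as a block, were listed but not run, since both tables hold the same values and no column names a chip. The mouse numbers differ between the strains, so nothing was paired.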
